A study of Homo sapiens with 9 samples.

Results

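This account follows 10 genes for secreted matrix glycoproteins and their relatives, chosen by symbol: OLFML3, OLFML2A, OLFML2B, TNC, FN1, THBS1, THBS2, SPARC, SPOCK1 and TGFBI. Each symbol matched 1 row among the 60240 genes in the count table, and all 10 were among the 17058 genes with enough counts to be tested. The RNA came from MDA-MB-231, an established human breast cancer cell line of basal, mesenchymal type in which the oestrogen and progesterone receptors and HER2 are lacking. A lentivirus had given the cells genes that doxycycline switches on. In 2 of the 3 groups it encoded GFP, luciferase and isoform 1 of oestrogen receptor beta (ERβ1), a nuclear receptor encoded by ESR2. One of those groups also received the ligand CLI for 24 h, and is called ERβ1 + CLI here, while the other, called ERβ1, did not. In the third group, the control cells, it encoded GFP and luciferase without the receptor. Every group had 3 libraries and was grown in doxycycline at 100 ng/ml for 3 days. No control cells received CLI, and the labels do not say whether the transduced cells were clones or pools, or whether replicates were separate cultures, so the spread between these samples may be technical.

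These proteins make up or decorate the meshwork outside cells. Fibronectin and TGFBI are adhesive proteins that integrins bind. Thrombospondins, tenascin C and SPARC are matricellular proteins, which are secreted into the matrix but mainly tune how cells attach, spread and respond to growth factors. Breast tumours carry much of this material in their stroma, and tumour cells of mesenchymal type make part of it themselves. Since the series asked how ERβ1 with and without its ligand alters expression, growth and spread of these cells, the matrix genes were read across all 3 comparisons: ERβ1 over control, ERβ1 + CLI over ERβ1, and ERβ1 + CLI over control.

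Libraries held 39902456 to 55387538 estimated counts. ESR2 averaged 84.2 ± 3.09 CPM in ERβ1 + CLI cells, 117 ± 1.51 CPM in ERβ1 cells and 0.137 ± 0.00454 CPM in control cells (SD, n = 3 each), which matched the labels. CPM are counts scaled to library size with TMM factors. The mesenchymal markers VIM, CD44, EGFR, CAV1 and AXL, which this line is known for, were present in every group. Their summed level ran from 5963 to 6336 CPM in ERβ1 + CLI libraries, 6138 to 6315 CPM in ERβ1 libraries and 7276 to 7656 CPM in control libraries. In ERβ1 cells over control 3 of the 5 were called lower, against 10.7% of all tested genes. The part of these markers in the results below was not tested. ESR1, the gene of the other oestrogen receptor, had 0.765, 5.98 and 0.0677 CPM in ERβ1 + CLI replicates 1, 2 and 3, and did not exceed 0.114 CPM in any ERβ1 or control library. Since these are bulk samples, fewer cells expressing a gene and less RNA per cell cannot be told apart.

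The members were listed with results of all 3 comparisons in view, so their fold changes, standard errors and calls are descriptions, and no p is attached to them. A call means an adjusted p under 0.05 in edgeR's quasi-likelihood fit over all 17058 genes. With the receptor alone, 7 of the 10 were called against control, 6 higher and 1 lower, where 21.4% of all tested genes were called. The called members included 3 with at least a 2-fold difference, against 3.67% of tested genes, and libraries of the 2 groups did not overlap for 8 members, against 39.6% of tested genes. With CLI added to ERβ1 cells 3 of 10 were called, 2 higher and 1 lower, against 1.47% of all tested genes. For 1 of them the difference was at least 2-fold, against 0.252% of tested genes, and 7 members did not overlap, against 18.8%. In ERβ1 + CLI cells against control 8 of 10 were called, 6 higher and 2 lower, against 26.5% of all tested genes. There 4 members were called with at least a 2-fold difference, against 4.77% of tested genes, and 8 did not overlap, against 41.7%. The median log2 fold change of the members was 0.46, 0.23 and 0.39 in the 3 comparisons, beside about 0 over all tested genes in each. Since the comparisons share libraries, the values below are given side by side and are not independent of each other.

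**Figure D1:**
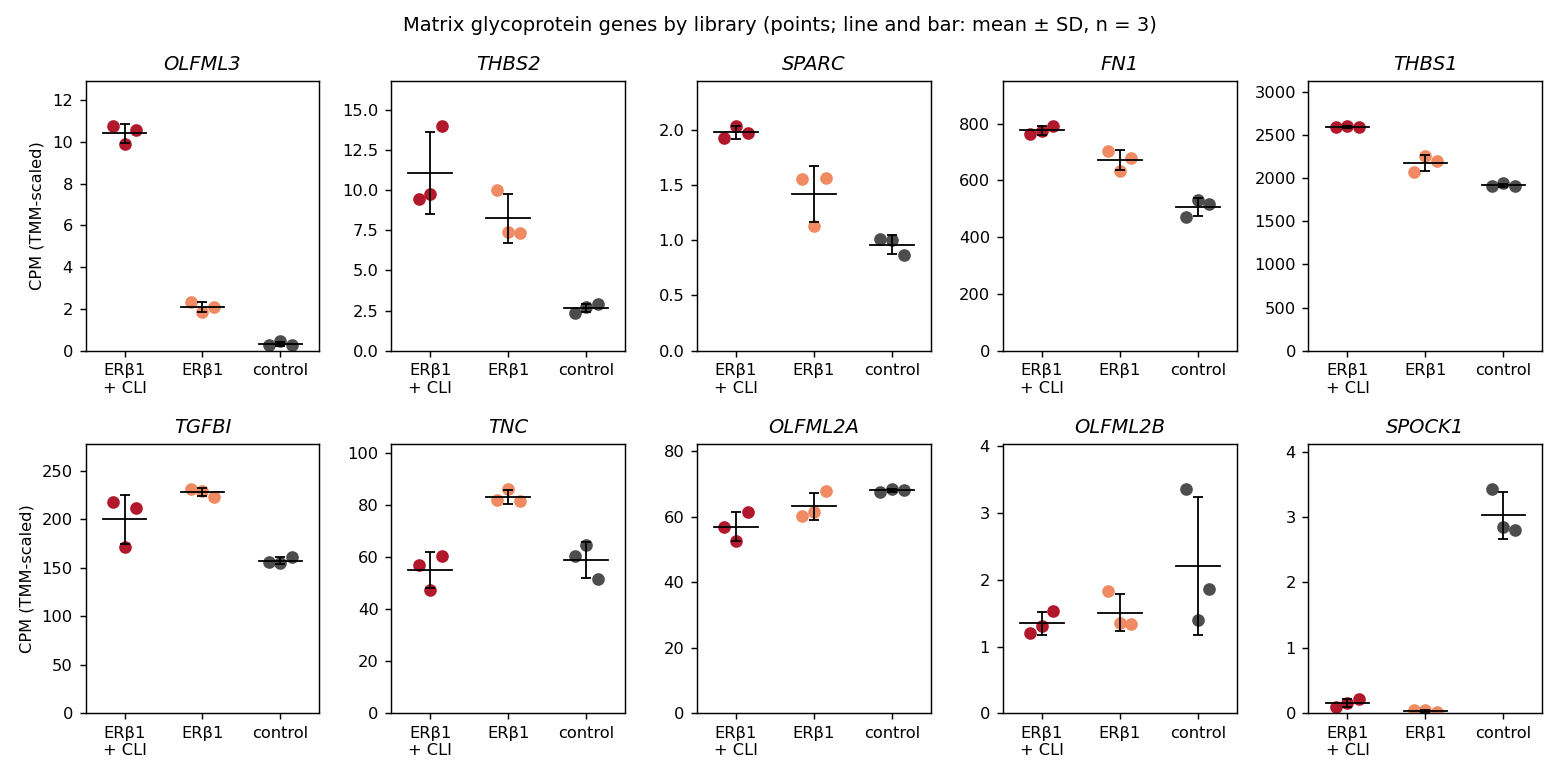
Expression of the 10 genes in CPM (vertical axes, each from 0) in the 3 libraries of ERβ1 + CLI, ERβ1 and control cells. Points are libraries, lines and bars are mean and SD. OLFML3 averaged 10.4, 2.09 and 0.336 CPM in the 3 groups, while SPOCK1 averaged 0.158, 0.0414 and 3.02 CPM.

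OLFML3 had the largest rises of the 10. It encodes a secreted olfactomedin-domain glycoprotein. In frog embryos its counterpart acts as a scaffold that brings a BMP1-type protease to chordin. ERβ1 + CLI libraries held 10.8, 9.89 and 10.5 CPM, ERβ1 libraries 2.31, 1.87 and 2.09 CPM, and control libraries 0.286, 0.443 and 0.28 CPM. The 3 groups did not overlap, and OLFML3 was scarce in control cells, with 13, 19 and 12 counts. The log2 fold change was 2.63 ± 0.18 (SE) in ERβ1 cells over control, a 6.17-fold difference, and 2.32 ± 0.15 with CLI over ERβ1 cells, a further 4.98-fold. Relative to control, ERβ1 + CLI cells stood 4.94 ± 0.18 higher on the log2 scale, or 30.7-fold, and all 3 differences were called. Leaving out any library in turn, the library with the high ESR1 among them, kept the CLI step of OLFML3 between 2.24 and 2.39. Whether ESR1 has a part in this step was not tested.

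THBS2, a trimeric thrombospondin known as an inhibitor of blood vessel growth, also rose. There were 9.43, 9.77 and 14.0 CPM in ERβ1 + CLI libraries, 10.003, 7.37 and 7.32 CPM in ERβ1 libraries, and 2.38, 2.73 and 2.89 CPM in control libraries. Every receptor library lay above every control library, whereas the libraries with and without CLI overlapped. Its log2 fold change was 1.63 ± 0.19 in ERβ1 cells over control and 2.05 ± 0.19 in ERβ1 + CLI cells over control, both called. The step from CLI, 0.43 ± 0.18, was not called.

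THBS1, which binds CD47 and CD36 and can release TGF-beta from its latent form, was the most abundant of the 10. It had 2589, 2607 and 2592 CPM in ERβ1 + CLI libraries, 2074, 2256 and 2201 CPM in ERβ1 libraries, and 1905, 1940.2 and 1912 CPM in control libraries. The groups were separate but close. Both steps were small and called, with a log2 fold change of 0.18 ± 0.03 in ERβ1 cells over control and 0.25 ± 0.03 with CLI over ERβ1 cells, and 0.44 ± 0.03 in ERβ1 + CLI cells over control. THBS1 alone supplied 69.2 to 70.9% of the summed CPM of the 10 genes in ERβ1 + CLI libraries, 65.5 to 68.8% in ERβ1 libraries and 70.1 to 71.4% in control libraries.

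The promoters of both thrombospondin genes, OLFML3 and FN1 are shown as examples of the 5 members called higher in both groups of receptor cells, TGFBI being the other, and because the paralogs THBS1 and THBS2 moved by different amounts. Each is the stretch of 250 bases before the start in RefSeq (GRCh38.p14), printed on the gene's strand. Capitals mark matches on either strand to GGGCGG (the GC box bound by SP1), TATAAA (the TATA box) or TGACGTCA (the cyclic AMP response element).
OLFML3 (chr1:113979224-113979473, plus strand): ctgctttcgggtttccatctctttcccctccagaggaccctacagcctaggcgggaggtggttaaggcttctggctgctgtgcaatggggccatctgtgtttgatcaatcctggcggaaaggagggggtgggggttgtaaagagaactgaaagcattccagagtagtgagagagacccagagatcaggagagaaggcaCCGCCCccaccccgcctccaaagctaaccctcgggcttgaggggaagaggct
THBS2 (chr6:169253847-169254096, minus strand): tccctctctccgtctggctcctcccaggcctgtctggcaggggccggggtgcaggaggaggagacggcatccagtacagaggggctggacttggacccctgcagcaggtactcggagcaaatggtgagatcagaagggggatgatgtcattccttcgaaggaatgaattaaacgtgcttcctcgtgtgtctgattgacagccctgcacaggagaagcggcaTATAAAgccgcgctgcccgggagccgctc
THBS1 (chr15:39580829-39581078, plus strand): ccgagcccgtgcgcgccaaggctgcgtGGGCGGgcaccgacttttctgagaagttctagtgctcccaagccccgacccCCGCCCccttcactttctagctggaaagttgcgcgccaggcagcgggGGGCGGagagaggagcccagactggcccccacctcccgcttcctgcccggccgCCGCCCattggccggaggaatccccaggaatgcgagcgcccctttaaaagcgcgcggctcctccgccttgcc
FN1 (chr2:215436069-215436318, minus strand): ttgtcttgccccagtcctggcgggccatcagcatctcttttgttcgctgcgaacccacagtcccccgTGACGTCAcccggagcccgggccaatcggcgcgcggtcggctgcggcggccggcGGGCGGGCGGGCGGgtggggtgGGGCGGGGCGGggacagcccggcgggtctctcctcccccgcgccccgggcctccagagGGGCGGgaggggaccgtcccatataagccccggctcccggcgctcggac

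The RefSeq table as used here gave 10 promoters for 9 of the genes, OLFML2A having 2 starts, and held none for SPOCK1. The THBS2 promoter held a TATA box beginning 29 bases before the start and no GC box. THBS1 held 4 GC boxes and FN1 6, some of them overlapping, and OLFML3 held 1. GC boxes were present in 7 of the 10 promoters, against 42.6% of 35116 promoters in the table, and the TATA box in 1 of 10, against 10.7%. No promoter of the 10 held the oestrogen response element (GGTCA and TGACC with 3 bases of any kind between) or the AP-1 site TGANTCA, which 0.0399 and 6.57% of all promoters held. A single arm of the oestrogen response element, GGTCA on either strand, occurred in OLFML2B and SPARC, against 32.6% of all promoters. These letters describe the windows and say nothing of binding.

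FN1 and TGFBI are the adhesive members. Fibronectin, the product of FN1, is assembled into fibrils by integrin alpha 5 beta 1. FN1 had 763, 773 and 792 CPM in ERβ1 + CLI libraries, 705, 634 and 679.6 CPM in ERβ1 libraries, and 469, 529 and 518 CPM in control libraries. The 3 groups did not overlap. FN1 rose by 0.41 ± 0.05 on the log2 scale in ERβ1 cells over control and by 0.62 ± 0.05 in ERβ1 + CLI cells over control. The difference between ERβ1 + CLI and ERβ1 cells, 0.21 ± 0.05, was not called by edgeR but was called by DESeq2, which gave the same size.

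TGFBI, a fasciclin-domain protein first found as a TGF-beta induced gene, had 218, 171 and 212 CPM in ERβ1 + CLI libraries, 232, 229 and 224 CPM in ERβ1 libraries, and 156, 155 and 162 CPM in control libraries. Both groups with the receptor lay above control. TGFBI rose by 0.53 ± 0.08 on the log2 scale in ERβ1 cells over control and by 0.35 ± 0.08 in ERβ1 + CLI cells over control. With CLI against ERβ1 the log2 fold change was -0.19 ± 0.08 and was not called, although all 3 ERβ1 + CLI libraries were below all 3 ERβ1 libraries. ERβ1 + CLI replicate 2, the library with the high ESR1, was the lowest of its group for TGFBI, TNC, OLFML2A and OLFML3, the highest for THBS1 and SPARC, and in the middle for the other 4 genes. Whether the ESR1 of that library has a part in these values was not tested.

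TNC moved in opposite directions in the receptor and ligand comparisons. Tenascin C is a large hexameric protein of embryonic, healing and tumour matrix that weakens attachment to fibronectin. TNC had 57.1, 47.3 and 60.7 CPM in ERβ1 + CLI libraries, 82.0, 86.4 and 81.5 CPM in ERβ1 libraries, and 60.5, 64.8 and 51.6 CPM in control libraries. The ERβ1 libraries were above all the others, while ERβ1 + CLI and control libraries overlapped. TNC rose by 0.50 ± 0.10 on the log2 scale in ERβ1 cells over control and fell by 0.60 with CLI relative to ERβ1 cells (SE 0.10). ERβ1 + CLI cells against control gave -0.10 ± 0.10, not called. The call of the fall with CLI ended without control replicate 1 (-0.60), without ERβ1 replicate 1, 2 or 3 (-0.61, -0.57 and -0.62) and without ERβ1 + CLI replicate 1 or 2 (-0.63 and -0.50), so its size held but its call was at the edge of the threshold.

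SPARC, also known as osteonectin, is a collagen-binding protein of bone and tumour stroma. It was scarce here, with 1.92, 2.03 and 1.96 CPM in ERβ1 + CLI libraries, 1.56, 1.12 and 1.56 CPM in ERβ1 libraries, and 1.01, 1.00 and 0.862 CPM in control libraries. The 3 groups did not overlap. SPARC rose by 1.04 ± 0.17 on the log2 scale in ERβ1 + CLI cells over control, a 2.05-fold difference. Each step taken alone was not called, being 0.55 ± 0.17 in ERβ1 cells over control and 0.48 ± 0.17 with CLI over ERβ1. Without ERβ1 replicate 2, the lowest of its group, the first of these was 0.70 and was called.

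SPOCK1 was the 1 member that fell strongly. It encodes testican 1, a secreted proteoglycan of the SPARC family. It had 0.0927, 0.156 and 0.226 CPM in ERβ1 + CLI libraries, 0.0458, 0.0535 and 0.0248 CPM in ERβ1 libraries, and 3.43, 2.85 and 2.80 CPM in control libraries. In rounded counts that was 4, 8 and 10 in ERβ1 + CLI libraries, 2, 3 and 1 in ERβ1 libraries, and 156, 122 and 120 in control libraries. The groups did not overlap. SPOCK1 fell by 6.06 on the log2 scale in ERβ1 cells relative to control (SE 0.35), and it fell by 4.23 in ERβ1 + CLI cells relative to control (SE 0.29).

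Since the ERβ1 libraries held few SPOCK1 counts, the size of the fall is imprecise. The summed counts, 6 in ERβ1 and 398 in control libraries, gave a level 70.8-fold lower in ERβ1 cells, with an exact 95% interval of 32.2 to 194 that covers counting error only. On the deposited log2 CPM the log2 fold change was -5.27. With CLI the 22 counts against 6 in ERβ1 cells gave a ratio of 3.70 (exact 95% interval 1.46 to 11.2, again for counting error only). The fitted log2 fold change, which takes in the spread between libraries, was 1.83 ± 0.43 and was not called. Even so, ERβ1 + CLI cells stayed 19.1-fold below control (12.4 to 30.8, for counting error only). SPOCK1 lies on chromosome 5 (136975298 to 137598379, minus strand, GRCh38), within 1 Mb of TGFBI (136028895 to 136063818, plus strand), which was higher in the same cells.

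**Figure D2:**
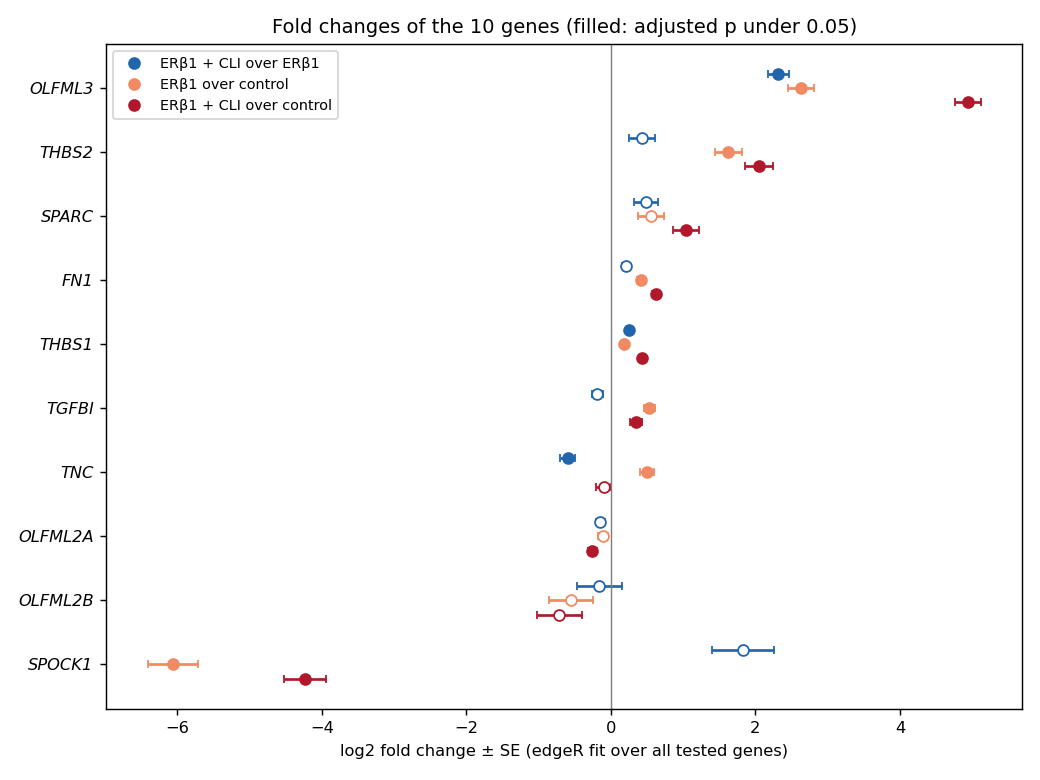
Log2 fold changes of the 10 genes (horizontal axis) with SE bars, for ERβ1 + CLI over ERβ1, ERβ1 over control and ERβ1 + CLI over control. Filled points have an adjusted p under 0.05 in the fit over all tested genes. OLFML3 lies to the right in all 3 (2.32, 2.63 and 4.94), SPOCK1 lies to the left against control (-6.06 and -4.23), and TNC lies on opposite sides for CLI (-0.60) and for ERβ1 over control (0.50).

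The olfactomedin-like members did not move as a family. OLFML2A and OLFML2B encode the photomedins, secreted olfactomedin-domain proteins found in mouse retina, where they bind chondroitin sulphate. OLFML2A had 57.0, 52.5 and 61.5 CPM in ERβ1 + CLI libraries, 60.1, 61.5 and 67.8 CPM in ERβ1 libraries, and 67.6, 68.6 and 68.2 CPM in control libraries. It was therefore lowest with CLI, and the libraries with and without CLI overlapped. It fell by 0.26 on the log2 scale in ERβ1 + CLI cells relative to control (SE 0.06), while the log2 fold changes of -0.11 ± 0.06 in ERβ1 cells over control and -0.15 ± 0.06 with CLI over ERβ1 were not called. The call of the fall ended without control replicate 2 or 3 (both -0.25) or without ERβ1 + CLI replicate 1 (-0.25).

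OLFML2B had 1.21, 1.31 and 1.54 CPM in ERβ1 + CLI libraries, 1.83, 1.36 and 1.34 CPM in ERβ1 libraries, and 3.37, 1.40 and 1.86 CPM in control libraries. All groups overlapped, and control replicate 1 was far above the rest. The log2 fold change was -0.55 ± 0.31 in ERβ1 cells over control, -0.16 ± 0.31 with CLI over ERβ1 and -0.71 ± 0.31 in ERβ1 + CLI cells over control, none called. Without control replicate 1 the differences from control shrank to -0.11 in ERβ1 cells and -0.27 in ERβ1 + CLI cells. Without control replicate 2 the difference of ERβ1 + CLI cells from control was -0.95 and was called.

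Levels of different genes were compared per length of merged exons in GENCODE release 29, which only approximates the transcripts used. THBS1 led in every group, with 283 ± 1.01 CPM per kb in ERβ1 + CLI cells, 238 ± 10.2 in ERβ1 cells and 209.6 ± 2.04 in control cells (SD, n = 3 each). FN1 came next with 44.8 ± 0.835, 38.9 ± 2.06 and 29.2 ± 1.85 CPM per kb in the same groups, followed by TGFBI with 25.6 ± 3.23, 29.2 ± 0.536 and 20.2 ± 0.444. OLFML2A and TNC were the next pair, at 8.45 ± 0.665 and 5.71 ± 0.714 CPM per kb in ERβ1 + CLI cells and 10.1 ± 0.0736 and 6.12 ± 0.703 in control cells. In ERβ1 cells OLFML2A at 9.36 ± 0.603 and TNC at 8.65 ± 0.281 stood closer, and their ranges of mean ± SD overlapped. The other 5 stood below 1 CPM per kb in control cells, where OLFML3 was the lowest at 0.119 ± 0.0329 and OLFML2B at 0.647 ± 0.301, SPOCK1 at 0.486 ± 0.0569 and THBS2 at 0.416 ± 0.0409 did not differ beyond the spread of OLFML2B. In ERβ1 + CLI cells OLFML3 led these 5 at 3.69 ± 0.161 CPM per kb, ahead of THBS2 at 1.73 ± 0.395.

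**Figure D3:**
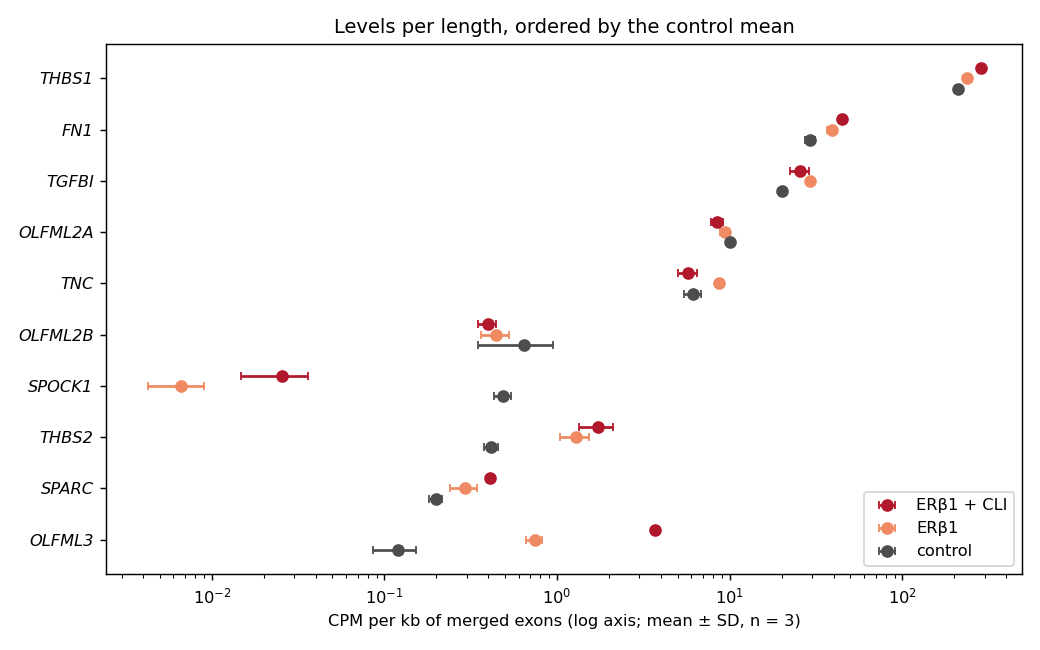
CPM per kb of merged exons (log horizontal axis, mean and SD of 3 libraries) for the 10 genes, ordered by their control mean, in ERβ1 + CLI, ERβ1 and control cells. THBS1 is at the top with 283, 238 and 209.6 CPM per kb, and OLFML3, the lowest in control cells at 0.119, reached 3.69 in ERβ1 + CLI cells.

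Each gene was also set beside the genes around it. Around OLFML3 (chromosome 1 of GRCh38, 113979391 to 114035572, plus strand) 15 other protein-coding genes within 1 Mb were tested, and their log2 fold changes in ERβ1 + CLI cells over control ran from -0.68 to 0.38, with a median of 0.04. Of these 15, 2 were called higher and 1 lower, where 26.5% of all tested genes were called in either direction. HIPK1, a kinase gene 1522 bases away from OLFML3, was at 0.19 and was called higher (edgeR adjusted p = 0.012). Around THBS2 (chromosome 6, 169215780 to 169254044) 6 neighbours ran from -1.10 to 0.10, and around SPARC (chromosome 5, 151661096 to 151687165) 12 neighbours ran from -1.13 to 0.76. SPOCK1 had 14 such neighbours, none below -0.31. OLFML3, THBS2, SPARC and SPOCK1 thus lay outside the range of their neighbours in this comparison, while the other 6 lay within it.

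**Figure D4:**
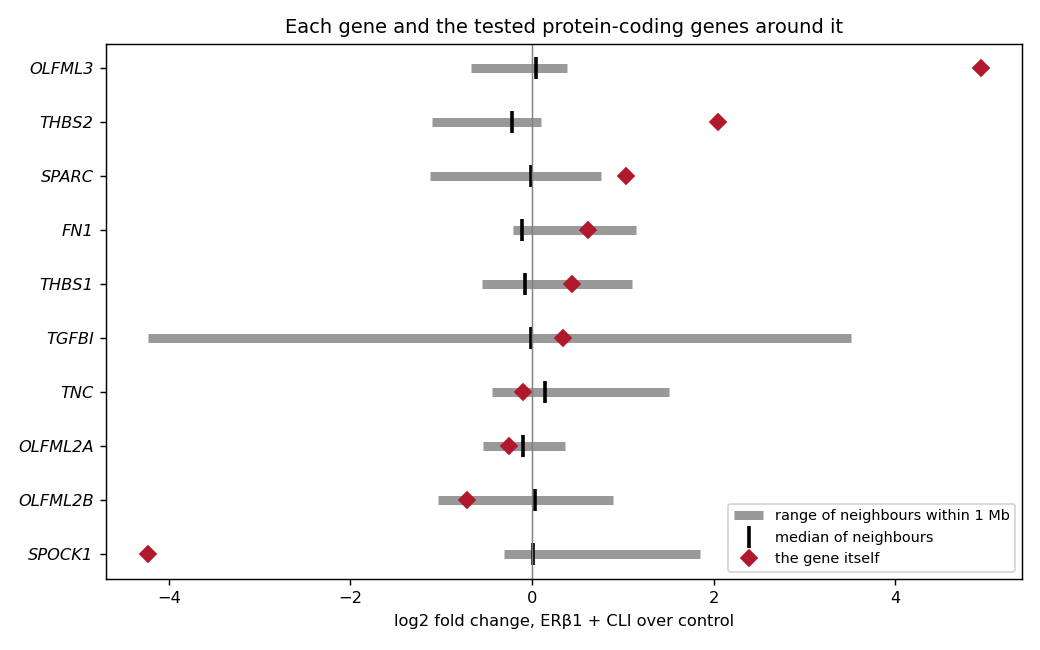
Log2 fold change in ERβ1 + CLI cells over control (horizontal axis) of each gene (diamonds) and of the tested protein-coding genes within 1 Mb (grey bar, lowest to highest, with a tick at the median). OLFML3 at 4.94 and SPOCK1 at -4.23 are far outside their bars, which end at 0.38 and -0.31 on those sides, and the wide bar of TGFBI includes SPOCK1.

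Transcripts of the 10 genes shared few short stretches with those of other genes, though no reads were examined. Words of 31 bases from the transcripts of OLFML3, OLFML2B, THBS2, SPOCK1 and TGFBI occurred in no other gene of GENCODE release 29, and at most 4.17% of them did so in the other members, in OLFML2A. Exons of THBS1 overlap those of FSIP1 on the opposite strand over 4.89% of their length, and those of the antisense gene AC037198.2 over 4.49%. Exons of SPARC overlap those of the antisense gene CLMAT3 over 7.89%, and exons of TNC those of DEC1 on the opposite strand over 1.34%. The library kit kept strand, per the labels' protocols, but the setting used in counting is not given in the sources used here, so the split of such reads is uncertain.

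Other genes of the same protein families were listed with earlier results known, and are read beside the 21.4% of all tested genes called in ERβ1 cells over control. Of 10 further olfactomedin-domain genes 4 were tested, and in ERβ1 cells over control 1 rose and 1 fell. OLFM2, a secreted olfactomedin, was higher by 1.42 ± 0.27 in log2 units (edgeR adjusted p = 0.00632), at a low level of 0.762 ± 0.169 CPM in ERβ1 cells and 0.283 ± 0.0421 CPM in control cells (SD, n = 3 each). ADGRL2, an adhesion receptor with an olfactomedin domain, fell by 0.99 to 14.6 CPM in ERβ1 cells, against 29.1 CPM in control cells (edgeR adjusted p = 1.17e-05). None of the 3 tested among 9 relatives of the thrombospondins, tenascin C and TGFBI was called, and THBS3, named after its value was seen, was at 0.53 ± 0.22 (edgeR adjusted p = 0.128). Of 6 further SPARC-family genes 2 were tested, and FSTL1 fell by 0.14 (edgeR adjusted p = 0.0409), a call lost in 12 of 19 alternative fits, with adjusted p from 0.0152 to 0.14 over all 19. With CLI over ERβ1 no gene of these 3 lists was called.

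Among other matrix glycoproteins, several genes were higher in receptor cells. Of 12 elastic fibre and fibulin genes tested from 17 listed, 5 rose and 1 fell in ERβ1 cells over control, with a median log2 fold change of 0.54 beside about 0 over all tested genes, of which 10.7% were called higher and 10.7% lower. LTBP2 and LTBP1, which hold latent TGF-beta in the matrix, rose by 0.82 and 0.74 (edgeR adjusted p = 1.92e-05 and 0.000198), and EFEMP1, a fibulin, by 0.54 (edgeR adjusted p = 1.37e-05). MFAP2, a microfibril protein, was the gene that fell, by 0.83 (edgeR adjusted p = 0.00113), and is named after its value was seen. Of 11 laminin and nidogen genes tested from 13 listed, 3 rose and 1 fell in the same comparison, with a median of 0.06. LAMC1 rose by 0.28 and LAMA5 by 0.23 in ERβ1 cells over control (edgeR adjusted p = 0.0074 and 0.0313), and LAMA5 lost its call in 3 of 19 alternative fits, those without control replicate 1, control replicate 2 or ERβ1 replicate 3. Over all 19 LAMA5 lay between 0.17 and 0.28, with adjusted p from 0.0059 to 0.0939. The gene that fell was LAMB1, at -0.19 (edgeR adjusted p = 0.043), and it is named after its value was seen. The call of LAMB1 was lost in 11 of 19 alternative fits, with adjusted p from 0.00858 to 0.161 over all 19. LAMB3, a laminin chain of epithelial basement membrane, stood at -0.15 with CLI over ERβ1 (edgeR adjusted p = 0.0485), a call lost in 15 of 19 alternative fits, with adjusted p from 0.000332 to 0.19 over all 19.

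Receptors that bind the products of the 10 genes were read from a list of 18, of which 15 were tested. In ERβ1 cells over control 6 rose and 2 fell, where 21.4% of all tested genes were called in either direction, and the median log2 fold change was 0.17. The vitronectin and fibronectin receptor chain ITGB3 rose by 0.92 (edgeR adjusted p = 9.26e-06), to 38.3 ± 1.19 CPM in ERβ1 cells against 20.2 ± 0.786 CPM in control cells (SD, n = 3 each). The syndecan gene SDC2 rose by 0.49 (edgeR adjusted p = 0.000272), while the laminin receptor chain ITGA6 fell by 0.43 (edgeR adjusted p = 0.000392). The chains of the main fibronectin receptor differed in direction, with ITGA5 at 0.41 ± 0.07 and ITGB1 at -0.14 ± 0.03 (edgeR adjusted p = 0.00475 and 0.00662). ITGA5 and ITGB1 were named after their values were seen, and ITGB1 lost its call in 1 of 19 alternative fits (adjusted p up to 0.0516). ITGB8, likewise named after its value was seen, was at 0.44 (edgeR adjusted p = 0.0263). The call of ITGB8 was lost in 5 of 19 alternative fits, with adjusted p from 0.0214 to 0.101 over all 19. With CLI over ERβ1, SDC4, a syndecan that binds fibronectin, was the 1 receptor gene called, at 0.19 ± 0.03 (edgeR adjusted p = 0.0299), and 11 of 19 alternative fits lost that call, with adjusted p from 2.16e-05 to 0.138 over all 19.

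**Figure D5:**
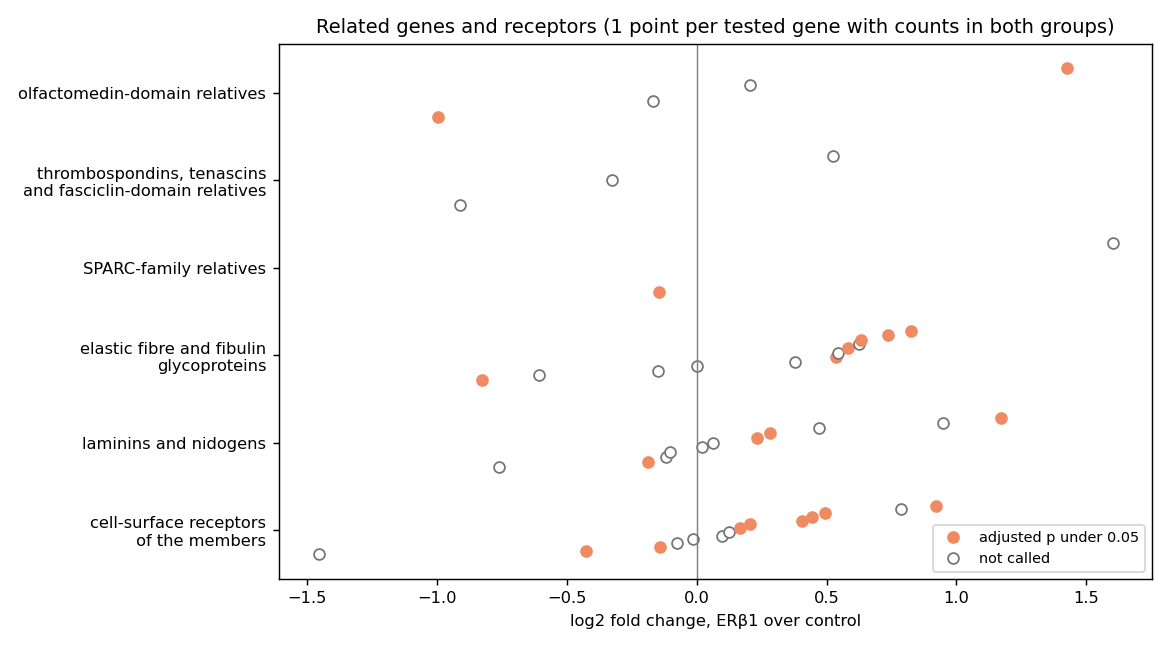
Log2 fold change in ERβ1 cells over control (horizontal axis) of tested genes from 6 lists of family relatives, other matrix glycoproteins and receptors. Filled points have an adjusted p under 0.05, and ITGA4, with 0 counts in control libraries, is not drawn. In the elastic fibre and fibulin list 5 filled points lie to the right and 1 to the left, and ITGB3 at 0.92 is the rightmost receptor gene.

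By a fixed measure of likeness, the 5 genes closest to SPOCK1 over the 9 libraries were LYPD5, ROBO1, ADAMTS1, CPVL and TJP3. The measure was the root mean square difference in log2 CPM, each gene centred on its control mean. It was taken among genes averaging 2 CPM or more, and ran from 0.59 for LYPD5 to 1.28 for TJP3. These log2 CPM were computed with a prior count of 2, which draws values near 0 counts together. The fitted log2 fold changes in ERβ1 cells over control were -6.06 for SPOCK1, -4.43 for LYPD5 and -3.47 for TJP3. ROBO1, an axon guidance receptor gene, had a log2 fold change of -5.03 in ERβ1 cells over control, and ADAMTS1, a protease gene, one of -4.80. No shared function or control follows from this likeness.

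Markers of other cell types were read beside these values, since fibroblasts make many of the same proteins. The summed level of 8 fibroblast markers ran from 27.5 to 40.8 CPM in ERβ1 + CLI libraries, 26.3 to 36.3 CPM in ERβ1 libraries and 22.8 to 30.8 CPM in control libraries. In ERβ1 cells over control 2 of the 8 were called higher. Of all tested genes 10.7% were called higher and 10.7% lower in that comparison. The defining fibroblast gene DCN had 0 counts in control cells and at most 0.0903 CPM in any library. PDGFRB was the most abundant of the 8, averaging 20.8 CPM in ERβ1 + CLI cells, 20.5 CPM in ERβ1 cells and 18.6 CPM in control cells. The markers called were COL1A1, averaging 9.83 CPM in ERβ1 + CLI cells, 8.23 CPM in ERβ1 cells and 5.25 CPM in control cells, and LUM, averaging 0.535, 0.311 and 0.0453 CPM in the same groups. COL1A2 went the other way, averaging 1.26, 1.42 and 2.63 CPM in these groups, and was not called in ERβ1 cells over control. The summed levels of 4 endothelial markers ran from 13.9 to 15.9, 13.3 to 13.5 and 11.2 to 12.8 CPM, and those of 4 blood markers from 2.66 to 4.67, 2.41 to 4.72 and 1.30 to 2.29 CPM, in the same order of groups. Of the 4 endothelial markers 1 was called higher in ERβ1 cells over control, and of the 4 blood markers 1 was called higher. Of 11 luminal epithelial markers 1 was called higher and 3 lower in ERβ1 cells over control. The part of other cells in the matrix gene values was not tested.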

How the data were processed

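RNA from 9 samples of MDA-MB-231 cells was read as stranded single-end mRNA libraries, per the labels' protocols. The cell line field counts upward from sample to sample, and the line named in the growth protocol was taken for all. The submitters' processing notes name bcl2fastq 2.20, FastQC, Trimmomatic 0.38, Salmon 1.2.1, R 4.0.2, edgeR 3.30.3 and GRCh38. The authors deposited estimated counts per gene for 60240 genes and log2 CPM for 18934 of them. No label gives the strand setting or the annotation of the counting.

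The deposited estimated counts were rounded to whole numbers and low genes removed with filterByExpr, leaving 17058. Libraries were scaled by TMM and fitted together with edgeR 4.0.16 (R 4.3.3), using its quasi-likelihood test with 1 coefficient per group and Benjamini-Hochberg adjustment over all tested genes, after the scripts were tested on simulated data. A standard error is the log2 fold change divided by the root of the F statistic. For 3 libraries against 3 an exact permutation test cannot give a p below 0.1. Alternatives were other scaling (RLE, upper quartile, TMM with ESR2 left out), other filters, DESeq2 1.42.0, limma 3.58.1 on the deposited log2 CPM, only the 6 libraries compared, replicate blocks, and leaving out each library. Depth limits low genes most, and precision rests on 3 libraries per group. Exons, neighbours within 1 Mb and shared words of 31 bases came from GENCODE release 29, which held 58064 of the gene IDs, and promoters from RefSeq. Figures were drawn with matplotlib 3.10.9 under Python 3.11.15.

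The members and all gene lists were chosen with earlier results of these data known. Named genes were ESR2, all 10 members, up to 3 called genes per related list with the smallest adjusted p in ERβ1 over control and in ERβ1 + CLI over ERβ1, and the 5 genes most like the member with the largest fold change. Cell type markers come from the marker lists, and those given singly (ESR1, DCN, PDGFRB, COL1A1, COL1A2 and LUM) were, like the neighbour HIPK1, picked out after their values were seen. The remaining exceptions are marked where they stand. The rule also named a gene that is not reported here.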

Additional observations from a re-analysis of the deposited data

How the results depend on the processing

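Of 568 member fold changes under alternatives, 550 kept direction and call, 12 lost a call, 5 gained one and 1 reversed. The reversal was TNC in ERβ1 + CLI over control, at 0.0011 without ERβ1 + CLI replicate 2, and it ran from -0.18 to 0.0011 over the libraries left out, called in none. Members called ran from 7 to 8 (ERβ1 over control), 2 to 3 (ERβ1 + CLI over ERβ1) and 7 to 8 (ERβ1 + CLI over control) when each library was left out. All genes called then numbered 2517 to 3649, 114 to 211 and 3364 to 4376, against 3645, 251 and 4512 with all libraries.

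For ERβ1 + CLI over ERβ1, DESeq2 called 633 genes and the 6 libraries alone 158. Same-numbered libraries correlated by 0.0995, 0.371 and 0.0992 in their deviations in that comparison. In the other comparisons the values ran from -0.0957 to 0.0401. The replicate numbers were not taken to pair samples, though for ERβ1 + CLI over ERβ1 these values do not settle it. Libraries correlating best with their own number were 0 of 6, 2 of 6 and 4 of 6 in the 3 comparisons. The replicate block called 7, 2 and 8 members, TNC being the member lost in the second comparison, and 3400, 136 and 4335 genes. A block within the 6 libraries compared, chosen after seeing the data, called 7, 1 and 8 members and 2230, 66 and 3227 genes, with TNC and THBS1 the members lost in the second comparison. The cause was not tested. SPARC in ERβ1 over control gained a call with upper quartile scaling and with a filter of 1 CPM in 3 libraries (both 0.57). SPOCK1 had too few counts to be tested in ERβ1 + CLI and ERβ1 libraries alone.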
